A study of Homo sapiens with 8 samples.

Results

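Translation initiation and elongation factor genes were represented by 50 genes with 131 listed peaks of N6-methyladenosine (m6A), of 16701 gene names and 42272 peaks in the whole list. A peak was taken as a member when its listed gene name began with EEF1, EEF2 or EIF1 to EIF6, and names of pseudogenes, antisense RNAs and divergent transcripts were set aside. The peaks came from methylated RNA immunoprecipitation sequencing (MeRIP-seq) of U251, an established human glioblastoma line, in which poly(A) RNA was fragmented, pulled down with an anti-m6A antibody and sequenced beside the input. The 8 libraries were labelled si-NC input, si-HNRNPC input, si-NC 48h and si-HNRNPC 48h, with 2 libraries in each group. si-NC is a control siRNA and si-HNRNPC targets HNRNPC, a nuclear RNA-binding protein that reads m6A. The labels do not say what kind of library the 48h samples are.

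Each row of the deposited list described 1 peak, with nothing given for single libraries. The title of the list sets siRNA immunoprecipitates against siRNA inputs without naming si-NC or si-HNRNPC. Which transfection a row came from, and whether replicates were pooled, was not given in the sources used here. No value below therefore carries a replicate error, no difference between si-HNRNPC and si-NC could be computed, the knockdown of HNRNPC could not be checked, and the depth is unknown. Each peak carried a fold enrichment of the immunoprecipitated RNA over input, a log10 p and a log10 false discovery rate (FDR), all as the authors listed them. In the comparison of U251 with its label, all 6 glial and glioblastoma markers looked up (SOX2, NES, VIM, GFAP, OLIG2 and EGFR) had a peak at an FDR under 0.001, while PTPRC, EPCAM, ALB and RBFOX3 had none and PECAM1 and VWF had 1 weak peak each. CD68, a macrophage marker, had 5 peaks, 4 of them at an FDR under 0.001. Of all protein-coding genes, 50.7% had a peak at that FDR. A peak shows that a transcript was bound by the antibody, not its level, so these counts are a weak check of the label.

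Protein synthesis begins when initiation factors bring the small ribosomal subunit, the initiator tRNA and the mRNA together. The eIF4 proteins bind the 5′ cap and unwind the leader, eIF3 is the large scaffold on the small subunit, and eIF2 delivers the initiator tRNA, a step that eIF2B recharges and the EIF2AK kinases shut down under stress. Elongation factors then bring aminoacyl-tRNAs to the ribosome and move it along the mRNA. m6A is placed by a nuclear methyltransferase complex during transcription and is known to lie mainly near stop codons and in 3′ UTRs, and the antibody also binds a related methylated adenosine next to the cap.

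Many mRNAs of the translation apparatus begin with a C followed by an unbroken pyrimidine run, the 5′ terminal oligopyrimidine (TOP) motif, through which growth signals set their translation. The transcription starts were therefore laid beside the listed peaks. Each window below is credited to RefSeq, build GRCh38.p14, reads 5′ to 3′ on the gene's strand, and runs from 10 bases before the annotated start to the 20 bases that open the transcript. Capitals mark the pyrimidine run where it began with C and held at least 5 letters. These genes had listed peaks, but none of their peaks covered the annotated start:
EEF2, chr19:3985444-3985473, minus strand: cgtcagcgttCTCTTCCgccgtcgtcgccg
EEF1A1, chr6:73521013-73521042, minus strand: cgtgaacgttCTTTTTCgcaacgggtttgc
EIF3F, chr11:7987327-7987356, plus strand: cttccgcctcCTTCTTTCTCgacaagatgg
EIF4B, chr12:53006446-53006475, plus strand: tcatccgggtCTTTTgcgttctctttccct
EIF4A2, chr3:186783567-186783596, plus strand: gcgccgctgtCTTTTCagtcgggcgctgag
EIF2S3, chrX:24054946-24054975, plus strand: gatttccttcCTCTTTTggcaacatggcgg

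The next windows belong to genes with a listed peak that did cover the annotated start, and the single capital marks the start base. They are examples from 15 such genes, none of which opens with a pyrimidine run:
EIF1, chr17:41688875-41688904, plus strand: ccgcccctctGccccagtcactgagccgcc
EIF3J, chr15:44537137-44537166, plus strand: ccgccgtgctAactcctcgctagctctccc
EIF4E2, chr2:232550679-232550708, plus strand: agcggaagtcActccctgaggcagtggcga
EIF1AX, chrX:20141819-20141848, minus strand: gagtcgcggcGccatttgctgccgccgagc
EIF1B, chr3:40309697-40309726, plus strand: cattttgtgcGagaagccgcagcgccgcct
EIF2AK4, chr15:39934105-39934134, plus strand: gcccgtccccAgcgcggagccccgccccgc

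Of the 50 genes, 38 were in the RefSeq start table, and a listed peak covered the start in 15 of them (39.5%), beside 2877 of 9983 protein-coding genes with a peak (28.8%). No FDR limit was set on the peaks of either count. The peaks over the starts of EIF2AK2 and EEF1AKMT2 had FDRs of 0.333 and 0.0851, which did not pass 0.05. Those of EIF1AD, EIF2AK4 and EIF6 had FDRs of 0.0372, 0.00234 and 0.00182, which did not pass 0.001. A peak that did not cover the start could lie wholly upstream of it, as in EEF1A1, EIF3B, EIF3I, EIF4A2 and EIF4B. The list names no build, but the transcript start it gives equalled the start of the table to the base in 40 of the 102 rows of these 38 genes. The outer edge of the peak fell on the start base itself in 7 of the 15, EIF1, EIF1B and EIF2AK4 among them. None of these 15 transcripts began with C, whereas 9 of the other 23 (39.1%) did. The shares beginning with C over all protein-coding genes were 9.45% with a peak over the start and 11.99% with peaks elsewhere only. An opening with C and at least 5 pyrimidines was found in none of the 15 and in 7 of the other 23 (30.4%), EIF2D being the seventh. Over all protein-coding genes the shares with such an opening were 3.96% with a peak over the start and 5.35% with peaks elsewhere only. This split was noticed in the values and was not tested. Among the 17 translation factor genes in the table with no listed peak, 5 opened with C and a run of at least 5 pyrimidines (EIF2A, EIF2S3B, EIF3D, EIF3K and EIF3M).

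The letters GGACT, a common m6A sequence context, occurred on the transcribed strand within the first 50 transcribed bases of 2 of the 38 genes, EIF2B4 and EIF4G1, and on the opposite strand of 1. The shares over all 27305 genes of the table were 4.87% and 4.93%. Neither EIF2B4 nor EIF4G1 had a peak over its annotated start.

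Most translation factor genes carried listed peaks, and the folds of these peaks lay below those of the list as a whole. RefSeq and the list together named 70 genes under the rule, and 50 of them (71.4%) had a peak, beside 61.1% of all 20056 protein-coding genes. At an FDR under 0.001 the count was 47 of 70 (67.1%), beside 50.7%. Of the 131 peaks, 115 (87.8%) passed an FDR of 0.05 and 98 (74.8%) an FDR of 0.001, beside 81.6% and 62.0% of all listed peaks. The median fold over the 131 peaks was 3.10, beside 5.45 over all 42272 peaks and 4.87 over the 33959 peaks of protein-coding genes. Peaks of cytosolic ribosomal protein genes (3.73) and of the other translation genes compared below (3.58) also had low medians. Among peaks with a log10 p above -10 the medians were 2.52 for 59 member peaks, 4.09 for protein-coding genes and 4.90 for all. Among peaks at -100 or lower they were 5.95 for 27 member peaks, 7.66 for protein-coding genes and 7.70 for all. A fold over 10 was listed for 13 of 131 member peaks (9.92%) and for 19.4% of all peaks. Levels of the RNAs were not in the list, so their part in these folds was not tested.

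**Figure D1:**
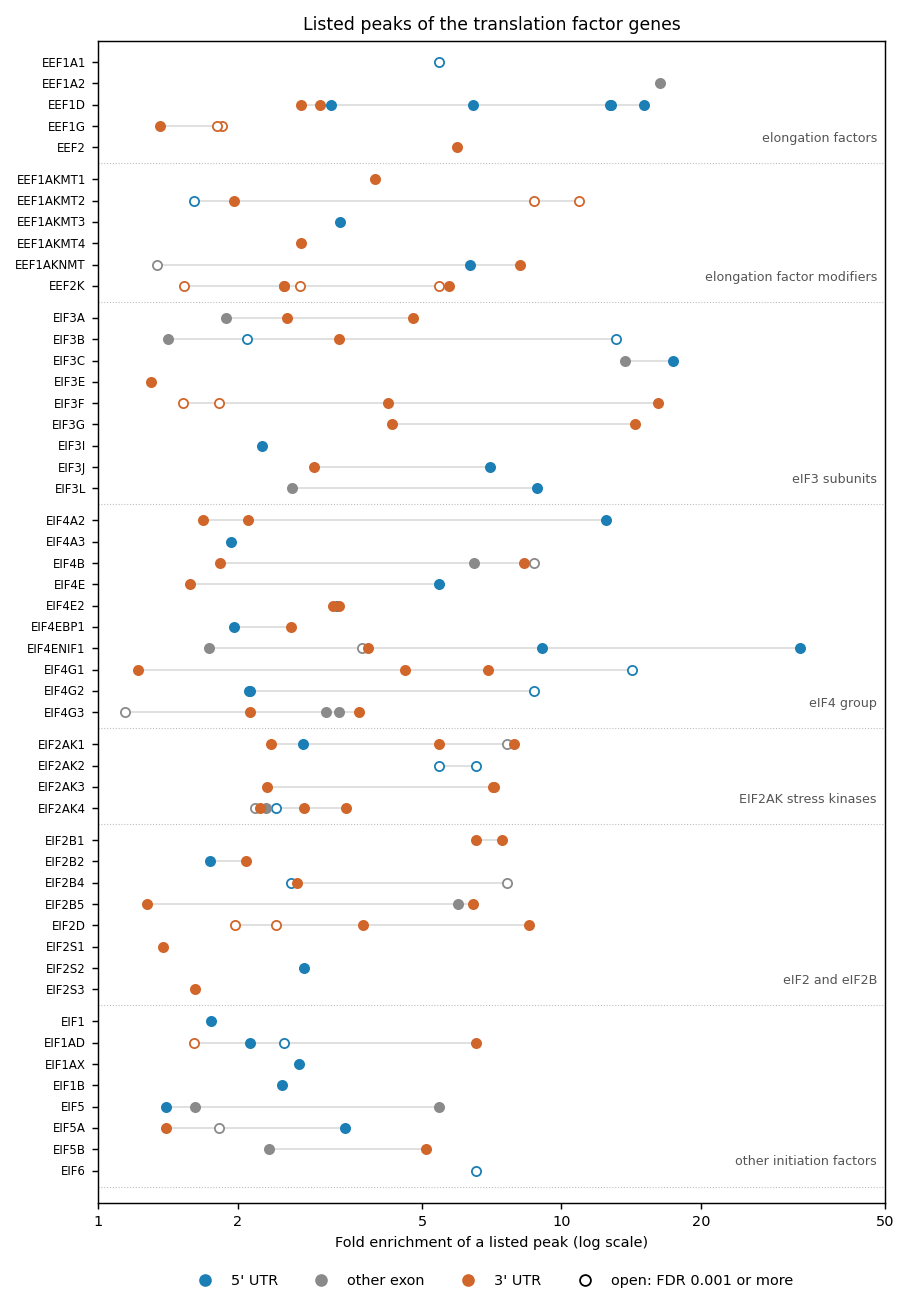
Each point is 1 listed peak of a translation factor gene, placed by its fold enrichment (log axis) and coloured by transcript region, and open points have an FDR of 0.001 or more. Folds ran from 1.14 in EIF4G3 to 32.7 in EIF4ENIF1, and some genes with several peaks spanned much of that range while others, such as EIF4E2 with 3.21 to 3.31, did not.

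The lowest p of the group belonged to peaks of moderate fold. EEF2 held rank 8 of all 42272 peaks by p, and EIF4G1 held ranks 85 and 106. EIF3A at rank 560 and EIF2B1 at rank 878 completed the 5 member peaks among the first 1000. Their folds lay between 4.59 and 6.95.

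**Figure D2:**
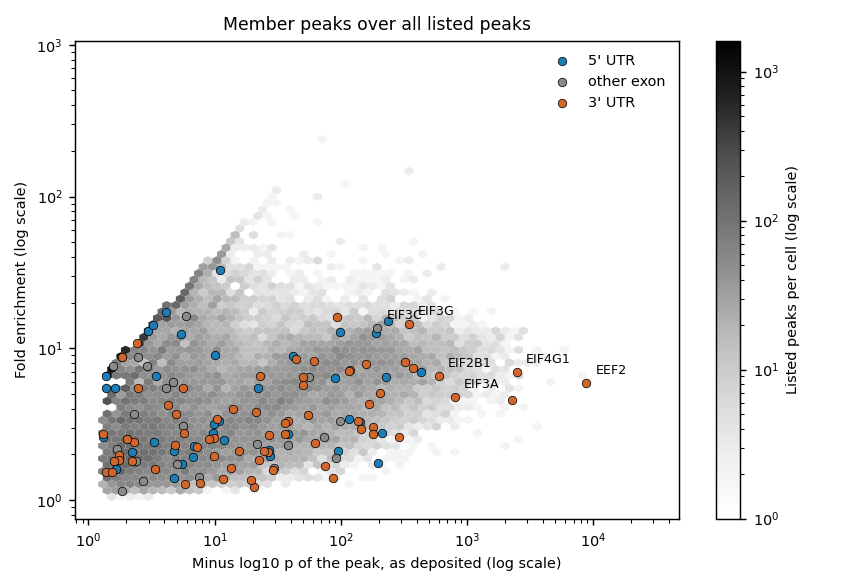
Fold enrichment (log axis) is plotted against minus log10 p (log axis) for the 131 member peaks, coloured by region, over the density of all 42272 listed peaks in grey. EEF2 and EIF4G1 lie at the far right with folds of 5.95 and 6.95, while folds above 10 are spread over weak and strong peaks.

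Weak peaks in the list took a stepped set of folds. Of the member peaks with a fold of at most 20, 14 of 33 at an FDR of 0.001 or more (42.4%) had a fold equal to a whole multiple of 1.089 within the rounding of the third digit, against 6 of 97 (6.19%) below that FDR. The shares over all peaks were 55.2% and 15.6%. The step was itself chosen from the list, as the value that the largest share of folds up to 20 met. The share that rounding alone would give was not computed. In some genes the highest fold was such a multiple, as in EEF1AKMT2, EIF3B, EIF3C and EIF4G1, and how often was not compared with all genes. The highest fold of all members, 32.7 in EIF4ENIF1, was also such a multiple, though above the limit of 20. Of the 34 genes with more than 1 peak, 17 had their highest fold at another peak than the one with the lowest p. The share over all listed genes with more than 1 peak was not computed, so this is not shown to be a trait of the group.

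The elongation factors had 13 peaks in 5 of 7 genes, and the lowest p values belonged to EEF2 and EEF1D. EEF2, the translocase that moves the ribosome by 1 codon, had a single peak at chr19:3976056-3976741, in the 3′ UTR and ending at the 3′ end of the named transcript. It covered 686 bases with a fold of 5.95 and a log10 p of -8850. EEF1D, a subunit of the complex that reloads eEF1A with GTP, lies on chromosome 8 and had 7 peaks, 5 of them in the 5′ UTR and 2 in the 3′ UTR. Its 5′ UTR peaks had folds of 3.18, 6.44, 12.7, 12.8 and 15.1, and the highest of them also had the lowest p of the gene, a log10 p of -239 over 1231 bases. The rows with folds of 12.7 and 12.8 shared bases, so they are not separate stretches of RNA. The 3′ UTR peaks of EEF1D had folds of 2.74 and 3.01, overlapped each other and shared bases with a row listed under the clone name AC067930. All 7 peaks of EEF1D passed an FDR of 0.001, and the rows labelled 5′ UTR had the higher folds. Those rows named different transcripts, and the row with a fold of 15.1 named the same transcript as the 3′ UTR rows.

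The other elongation factors had higher p values than EEF2 and EEF1D at their strongest peaks, though not always lower folds. EEF1A1, which carries aminoacyl-tRNA to the ribosome and is among the most abundant proteins of the cell, had 1 peak at chr6:73521703-73523797 with a fold of 5.45, a log10 p of -1.63 and an FDR of 0.0891, which did not pass 0.05. This peak lay wholly upstream of the RefSeq start of the gene. EEF1A2, its paralogue of muscle and neurons, had 1 exonic peak at chr20:63490272-63490422 with a fold of 16.3 over 151 bases and a log10 p of -5.94. The folds of both were whole multiples of the step described above. EEF1G, another subunit of the exchange complex, had 3 peaks in the 3′ UTR with folds of 1.36, 1.80 and 1.85. The strongest, at chr11:62559603-62559663, covered 61 bases with a fold of 1.36 and a log10 p of -19.5, and the other 2 overlapped each other and had FDRs of 0.0692 and 0.0912. EEF1B2 and EEF1E1 had no listed peak.

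The enzymes that modify the elongation factors had 16 peaks in 6 of 7 genes, 12 of them in the 3′ UTR. EEF1AKNMT, named METTL13 in RefSeq, methylates eEF1A and had the strongest peak, at chr1:171792168-171796998 in the 3′ UTR, with a fold of 8.12 over 719 bases and a log10 p of -321. It also had a 5′ UTR peak at chr1:171781660-171784356 with a fold of 6.34 and a log10 p of -90.2. EEF2K, the kinase that inactivates eEF2 by phosphorylation, had 6 peaks, all in the 3′ UTR. Its strongest lay at chr16:22273658-22284214, with a fold of 5.71 over 600 bases and a log10 p of -49.8, while the remaining 5 had log10 p between -9.11 and -1.30.

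The lysine methyltransferases of eEF1A showed how far the highest fold and the lowest p could part. EEF1AKMT2 had 4 peaks, and its highest fold, 10.9 at chr10:124748149-124756606, had a log10 p of -2.41 and an FDR of 0.0166. Its peak with the lowest p, at chr10:124760235-124762300, had a fold of 1.96 and a log10 p of -9.88. EEF1AKMT4 had 1 peak in the 3′ UTR at chr3:184258405-184258759, with a fold of 2.74 over 355 bases and a log10 p of -35.9. EEF1AKMT1 and EEF1AKMT3 had 1 peak each, with folds of 3.96 and 3.33. EEF2KMT, which methylates eEF2, had no listed peak.

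The eIF3 subunits had 21 peaks in 9 of 14 genes, and peaks of high and low fold stood side by side within the complex. EIF3A, the largest subunit, had the lowest p, at chr10:119035767-119051254, where 8 blocks covering 2158 bases had a fold of 4.79 and a log10 p of -805. This was the longest covered length of any member peak. It also had an exonic peak with a fold of 1.89 and a 3′ UTR peak with a fold of 2.56. EIF3J, a loosely bound subunit at the decoding site, followed with a 5′ UTR peak at chr15:44537125-44554651, with a fold of 7.01 over 656 bases and a log10 p of -431. A 3′ UTR peak of EIF3J had a fold of 2.92 and a log10 p of -144.

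The highest folds among the eIF3 subunits were in EIF3C and EIF3F. EIF3C, a core subunit, had a 5′ UTR peak at chr16:28688558-28688828 with a fold of 17.4 and a log10 p of -4.15, and an exonic peak at chr16:28714886-28720897 with a fold of 13.7 over 570 bases and a log10 p of -195. EIF3C has a near-identical copy, EIF3CL, which had no listed peak, and how reads were divided between the copies was not given in the sources used here. EIF3F, another core subunit, had 4 peaks in the 3′ UTR. The strongest, at chr11:7999437-8000575, covered 1139 bases with a fold of 16.2 and a log10 p of -93.6, and the folds of its neighbours were 1.52, 1.82 and 4.22. Of the 13 member peaks with a fold over 10, 4 had a log10 p of -100 or lower, and they belonged to EIF3C, EIF3G and EEF1D. At any fold, 20.6% of member peaks and 13.8% of all listed peaks had such a log10 p. The share over all listed peaks with a fold over 10 was not computed.

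EIF3B, the subunit that carries an RNA recognition motif, had 4 peaks. Its strongest lay in the 3′ UTR at chr7:2380087-2380745, with a fold of 3.31 over 659 bases and a log10 p of -137, and its highest fold, 13.1 at chr7:2354086-2354146, covered 61 bases with a log10 p of -2.98. The peak with that highest fold lay wholly upstream of the RefSeq start of EIF3B. EIF3G, an RNA-binding subunit, had 2 overlapping 3′ UTR peaks with folds of 14.4 and 4.30 and log10 p of -348 and -168. The higher of these extended past the 3′ end of the named transcript and shared bases with a row of the neighbouring gene PPAN on the other strand, listed at a fold of 10.2. EIF3L had 2 peaks, with a fold of 8.85 in the 5′ UTR and 2.62 in an exon, and both shared bases with rows of other genes. EIF3I had 1 peak with a fold of 2.26, wholly upstream of its RefSeq start. EIF3E, on chromosome 8, had the lowest value of the complex, 1 peak in the 3′ UTR with a fold of 1.30 over 121 bases and a log10 p of -7.62. EIF3D, EIF3H, EIF3K and EIF3M, like EIF3CL, had no listed peak.

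The eIF4 group had 32 peaks in 10 of 16 genes, and 27 of them passed an FDR of 0.001. EIF4G1, the scaffold that joins the cap-binding protein to the helicase and to eIF3, had 2 very strong 3′ UTR peaks. The peak at chr3:184331928-184335208 covered 660 bases with a fold of 6.95 and a log10 p of -2500, and the peak at chr3:184321274-184322431 covered 900 bases with a fold of 4.59 and a log10 p of -2260. The highest fold of EIF4G1, 14.2 at chr3:184320235-184320504, had a log10 p of -3.27, and the remaining peak had a fold of 1.22. The first of the strong peaks ended 149 genomic bases before the 3′ end of its named transcript, and the second lay 12926 genomic bases from that end of its own, so the label 3′ UTR holds for the transcript the list names and need not hold for others.

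EIF4EBP1, the repressor that mTOR signalling releases from eIF4E, lies on chromosome 8 and had a 3′ UTR peak with a fold of 2.60 over 528 bases and a log10 p of -288. Its 5′ UTR peak had a fold of 1.96 and a log10 p of -27.6. EIF4ENIF1, which carries eIF4E into the nucleus, had 5 peaks and the highest fold of all members. That peak, at chr22:31488716-31496108 in the 5′ UTR, had a fold of 32.7 over 660 bases in 6 blocks with a log10 p of -11.0, and a row overlapping it had a fold of 9.08. Its peak with the lowest p, at chr22:31439629-31440780 in the 3′ UTR, had a fold of 3.83 and a log10 p of -21.2. EIF4G3, a paralogue of EIF4G1, also had 5 peaks, with folds from 1.14 to 3.66 and a lowest log10 p of -99.2. EIF4G1 was thus far below its paralogue in log10 p.

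EIF4A3, the helicase of the exon junction complex, had the lowest highest fold of the group, a 5′ UTR peak at chr17:80147061-80147151 with a fold of 1.93 over 91 bases and a log10 p of -6.79. The helicase EIF4A2 had 3 peaks with folds from 1.68 to 12.5, and EIF4B, which stimulates the helicase, had 4 with folds from 1.83 to 8.71. In each of these genes the peak with the highest fold lay wholly upstream of the RefSeq start. The cap-binding protein gene EIF4E had 2 peaks with folds of 1.58 and 5.45. EIF4E2, a cap-binding protein that represses translation, had 3 with folds of 3.21, 3.28 and 3.31, of which the 5′ UTR peak had a log10 p of -141. EIF4G2, which initiates without binding eIF4E, had 3 peaks in the 5′ UTR with folds of 2.11, 2.13 and 8.71, the highest at an FDR of 0.0977. EIF4A1, EIF4E1B, EIF4E3, EIF4EBP2, EIF4EBP3 and EIF4H had no listed peak.

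All 4 EIF2AK kinases, which phosphorylate eIF2 and lower initiation under stress, had peaks, 16 in all. EIF2AK1 (HRI), the kinase that senses haem, had 5. Its strongest covered 1881 bases of the 3′ UTR at chr7:6022307-6024187 with a fold of 7.88 and a log10 p of -158. A second row inside it, at chr7:6023355-6023834, had a fold of 2.36 and a log10 p of -63.0. The remaining rows had folds of 7.63, 5.45 and 2.77 at log10 p of -2.92, -5.67 and -9.67, and the first of these was annotated to an exon of another gene. EIF2AK3 (PERK), the kinase of the endoplasmic reticulum, had 3 peaks in the 3′ UTR. The strongest pair overlapped, at chr2:88562347-88575351 and chr2:88574633-88575344, with folds of 7.16 and 7.10 and log10 p of -118 and -117. The third, at chr2:88556920-88557129, had a fold of 2.31 and a log10 p of -4.82.

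EIF2AK4 (GCN2), which senses uncharged tRNA, had the most peaks of the kinases and the lowest folds. Its 6 peaks ran from 2.18 to 3.42. The lowest p was in exons at chr15:39967437-39972915, with a fold of 2.30 over 451 bases and a log10 p of -38.1. The highest fold, at chr15:39973642-39974181, had a log10 p of -10.4, and the 5′ UTR peak at chr15:39934115-39934265 had a fold of 2.42 and a log10 p of -3.31. EIF2AK2 (PKR), which binds double-stranded RNA, had 2 overlapping 5′ UTR rows and no other. They lay at chr2:37149205-37157065 and chr2:37149215-37149304, had folds of 5.45 and 6.54 and shared a log10 p of -1.39 and an FDR of 0.333, so neither passed 0.05. By the peak with the lowest p, EIF2AK1 and EIF2AK3 were close in fold, and EIF2AK4 was lower.

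Peaks of eIF2 and of its exchange factor eIF2B numbered 17 in 8 of 11 genes, 12 of them in the 3′ UTR. The regulatory subunit gene EIF2B1 had a pair of strong 3′ UTR peaks, at chr12:123621005-123621844 with a fold of 6.53 over 840 bases and a log10 p of -602, and at chr12:123618823-123620554 with a fold of 7.43 over 899 bases and a log10 p of -377. The latter extended past the end of the named transcript, and DDX55 overlaps EIF2B1 in RefSeq. EIF2S2, the beta subunit of eIF2, had 1 peak in the 5′ UTR at chr20:34103564-34112243 with a fold of 2.78 over 328 bases and a log10 p of -211. EIF2S1, the alpha subunit that the kinases phosphorylate, had 1 peak at chr14:67382567-67383350 with a fold of 1.38 over 151 bases and a log10 p of -11.7. EIF2S3, the gamma subunit, had 1 with a fold of 1.62. The 3 subunits of eIF2 thus lay low in fold, between 1.38 and 2.78.

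EIF2D, which delivers tRNA without eIF2, had 4 peaks, all in the 3′ UTR. The strongest, at chr1:206586305-206587592, covered 1288 bases with a fold of 8.52 and a log10 p of -44.2, and RASSF5 overlaps this gene in RefSeq. EIF2B4, a regulatory subunit of eIF2B, had 3 peaks with a highest fold of 7.63 at an FDR of 0.0977, and its peak with the lowest p, at chr2:27369182-27369711, had a fold of 2.69 and a log10 p of -27.2. EIF2B5, the catalytic subunit, had 3 peaks with folds of 1.27, 5.99 and 6.44, and the regulatory subunit gene EIF2B2 had 2 with folds of 1.74 and 2.08. EIF2A, EIF2B3 and EIF2S3B had no listed peak.

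The remaining initiation factors had 16 peaks in 8 of 11 genes, and 8 of the 16 lay in the 5′ UTR. EIF5B, the GTPase that joins the ribosomal subunits, had the lowest p, in the 3′ UTR at chr2:99399184-99399771, with a fold of 5.11 over 479 bases and a log10 p of -205. EIF1, which guards start codon choice, followed with its single peak at chr17:41688885-41689095, from the start base of the transcript onward, with a fold of 1.75 over 211 bases and a log10 p of -197. EIF1AX, which also acts in start codon selection, and EIF1B, a paralogue of EIF1, had 1 peak each, both over the start, with folds of 2.71 and 2.49. EIF1AD had 4 peaks, the strongest at chr11:65998313-65999939 with a fold of 6.54 over 630 bases and a log10 p of -22.9. EIF6, which keeps the large subunit apart from the small, had 1 at chr20:35284650-35284985 with the same fold of 6.54, a log10 p of -3.42 and an FDR of 0.00182.

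EIF5A, the factor that carries hypusine, had 3 peaks with folds of 3.40, 1.82 and 1.40, of which the 5′ UTR peak had a log10 p of -116 and the 3′ UTR peak one of -86.5. EIF5, the GTPase-activating protein of eIF2, had 3 with folds of 1.40, 1.62 and 5.45. EIF1AY, EIF5A2 and EIF5AL1 had no listed peak.

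The transcript regions of the peaks differed in share between the subgroups, on small counts. Over all member peaks, 68 of 131 (51.9%, 95% Wilson interval 43.4 to 60.3) were labelled 3′ UTR, 41 (31.3%, 24.0 to 39.7) 5′ UTR and 22 (16.8%, 11.4 to 24.1) another exon. The shares over the 33959 peaks of protein-coding genes were 50.5%, 27.7% and 21.8%. The intervals cover counting error only, and peaks of 1 gene share their RNA. The 3′ UTR share was highest in the elongation factor modifiers, with 12 of 16 peaks, and in eIF2 and eIF2B, with 12 of 17, and it was lowest in the other initiation factors, with 4 of 16. The peak with the lowest p lay in the 3′ UTR in 29 genes, in the 5′ UTR in 15 and in another exon in 6. Peaks of both labels, 3′ UTR and 5′ UTR, were listed in 17 genes, though not always for the same named transcript. Of the 68 peaks labelled 3′ UTR, 27 ended within 500 genomic bases of the transcript end. Over the whole list, the regions of the lowest p, the pairs of labels and these end distances were not counted. The regions refer to the transcript each row names, whose start differed by more than 500 bases from the RefSeq start in 33 of 102 rows.

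**Figure D3:**
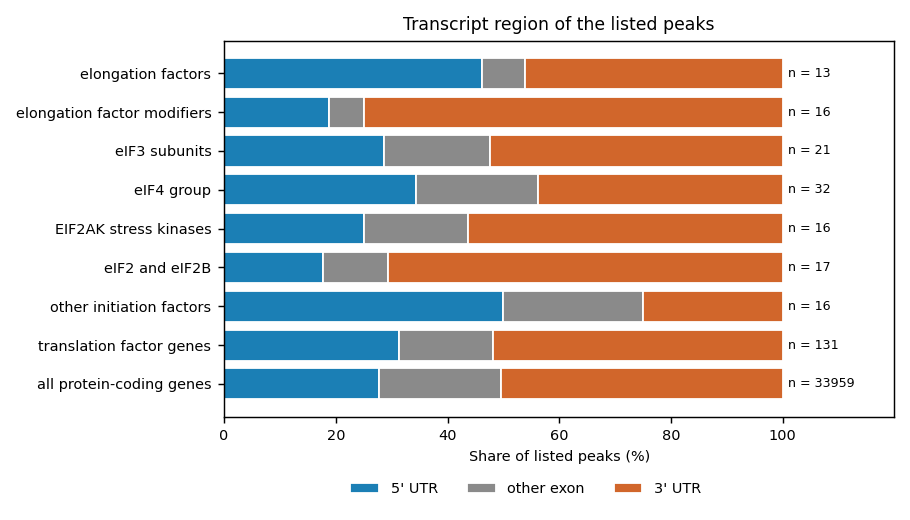
Bars give the share of listed peaks (percent) labelled 5′ UTR, other exon and 3′ UTR in each subgroup, in all translation factor genes and in all protein-coding genes, with the number of peaks at the right. The elongation factor modifiers have 12 of 16 peaks in the 3′ UTR and the other initiation factors 4 of 16.

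Which subgroup stood highest depended on the peak taken to stand for a gene and on the FDR asked of it. By the highest fold of each gene the medians were 8.85 for the eIF3 subunits, 7.08 for the eIF4 group, 6.85 for the EIF2AK kinases, 5.95 for the elongation factors, 4.84 for their modifiers, 4.61 for eIF2 and eIF2B and 4.26 for the other initiation factors. By the peak with the lowest p the kinases came first at 6.85, followed by the elongation factors at 5.95, the eIF3 subunits at 4.79 and the modifiers at 3.65, with the other initiation factors at 3.06, the eIF4 group at 2.94 and eIF2 and eIF2B at 2.74. The value of the kinases includes EIF2AK2, whose rows did not pass an FDR of 0.05. The median over all 50 genes was 5.83 by the highest fold and 3.37 by the lowest p, beside 8.31 and 7.03 over all 16701 names. The order also turned on the FDR: among peaks under 0.05 the median highest fold was 10.5 for the elongation factors, where 4 genes without EEF1A1 remained, 8.85 for the eIF3 subunits and 4.56 for the eIF4 group.

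**Figure D4:**
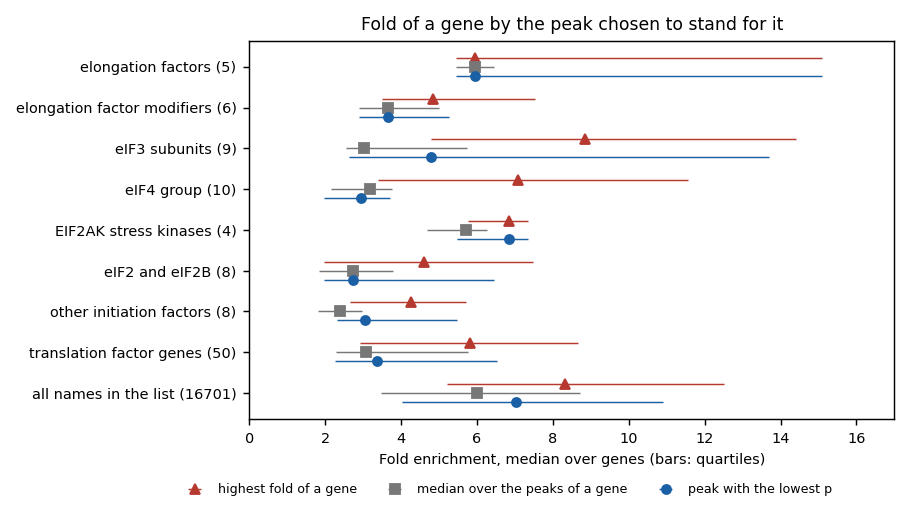
Markers give the median over genes of the fold enrichment, with bars for the quartiles, by the highest fold of a gene (triangles), the median over its peaks (squares) and its peak with the lowest p (circles). The number of genes with a peak stands beside each name. The eIF3 subunits move from 8.85 to 4.79 and the eIF4 group from 7.08 to 2.94 between the highest fold and the lowest p, and all names in the list from 8.31 to 7.03.

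The factors and subunits proper were compared with the enzymes and binding proteins that act on them. The enzymes and binding proteins were EEF2K, EEF2KMT, EIF4ENIF1 and the EEF1AKMT, EEF1AKNMT, EIF2AK and EIF4EBP genes. EIF1AD was also counted with them. The factors and subunits had 88 peaks in 37 of 54 genes, and 71 of these (80.7%) passed an FDR of 0.001. The enzymes and binding proteins had 43 peaks in 13 of 16 genes, of which 27 (62.8%) passed. The shares were 64.7% over the peaks of protein-coding genes and 62.0% over all listed peaks. The median fold of the peak with the lowest p was 3.31 and 3.96, in that order, beside 6.54 over all protein-coding genes.

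Other genes of translation, taken from a fixed list of 43 release, recycling, poly(A)-binding, signalling, stress-response and mitochondrial factors, had peaks in 38, 36 of them at an FDR under 0.001. The median fold of the peak with the lowest p was 4.86, beside 3.37 in the translation factor genes. By the highest fold of each gene the order was the other way, 5.015 beside 5.83. LARP1, which binds TOP mRNAs, had a highest fold of 237 and a fold of 5.19 at its lowest p, a log10 p of -659. DOHH and DHPS, which make the hypusine of eIF5A, had folds of 58.6 and 2.56. ATF4, the transcription factor induced when the EIF2AK kinases act, had a fold of 5.75 and a log10 p of -1520. ABCE1, PABPC1, PAIP1, DDIT3 and GFM2 had no listed peak. Among the cytosolic ribosomal proteins, 39 of 84 genes (46.4%) carried a peak and 31 one at an FDR under 0.001. Their median fold was 3.73 by the lowest p and 5.86 by the highest fold.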

How the data were processed

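The files were the authors' list of m6A peaks, 1 row per peak. Per the submitters' processing notes reads were processed with fastp and HISAT2. Peak caller, genome build and annotation were not given in the sources used here. Deposited values were a p-value, log10 p and log10 FDR (read as scores) and a fold enrichment over input (a ratio), used as listed. A named transcript start equalled the RefSeq GRCh38.p14 start in 40 of 102 member rows that could be compared, and in 35.2% of 29595 rows overall. Genes took the list's own names. Members and gene lists were chosen with earlier results of these data known. Every gene was named. Full values were given, per subgroup, for the 2 genes with the lowest p, the 2 with the highest fold, the 1 with most peaks, the 1 with the lowest highest fold and every EIF2AK kinase. A few further values were added after seeing them. Overlap, stepped folds and per-gene summaries were computed with Python 3.11.15 (pandas 2.3.3, NumPy 2.4.6, SciPy 1.17.1) and checked on made-up rows. No test between groups was run, and no columns of the authors' comparisons between groups were used.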

Additional observations from a re-analysis of the deposited data

How the results depend on the processing

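The counts of peaks and genes stayed within 1.5 times of their values under each alternative (115 and 98 peaks at an FDR under 0.05 and 0.001, 120 and 125 after merging overlapping rows, 88 in factors and subunits only), and the region shares within their intervals. The use of current symbols, an alternative added after seeing the data, gave 49 genes in place of 50. In all, 38 of 53 alternative values lay within these limits and 15 did not. The median highest fold of all members, 5.83, was 3.09 by the median over peaks and 3.37 by the lowest p. For the eIF3 subunits (8.85) these were 3.02 and 4.79, for the eIF4 group (7.08) 3.19 and 2.94, for eIF2 and eIF2B (4.61) 2.74 and 2.74, and for the other initiation factors (4.26) the median over peaks was 2.40. At an FDR under 0.05, and equally at 0.001, the elongation factors moved from 5.95 to 10.5, where the loss of EEF1A1 left 4 genes, the eIF4 group to 4.56 and eIF2 and eIF2B to 2.74. No paired analysis was possible because single libraries have no values in the list. Leaving out a replicate was likewise not run, nor was the planned difference of the transfections.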

Other observations

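The names set aside held 23 rows. EIF2AK3-DT, a transcript divergent from EIF2AK3, had 6 rows with folds of 2.54, 13.1, 21.8, 29.4, 35.9 and 37.0, of which the first lay below and the others above the highest fold of EIF2AK3, 7.16, at log10 p from -10.4 to -2.03. EIF3J-DT, divergent from EIF3J, had 1 row with a fold of 9.31 and a log10 p of -220, beside 7.01 and -431 for the 5′ UTR peak of EIF3J. EIF1B-AS1 had 1 row with a fold of 8.71 and a log10 p of -1.88. The 15 pseudogene rows included 8 at an FDR under 0.001. EIF4EP2 had the lowest p among them, a log10 p of -13.7 with a fold of 2.03, and EEF1DP2 the highest fold, 17.4 at a log10 p of -4.15. Reads of a pseudogene and of its parent gene can be near identical, and how they were assigned was not given in the sources used here.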
